A study of Mus musculus with 3 samples.

Results

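Transcript levels of 10 Kruppel-like factor (KLF) genes, *Klf2*, *Klf3*, *Klf4*, *Klf5*, *Klf6*, *Klf7*, *Klf9*, *Klf10*, *Klf11* and *Klf13*, were measured by RNA sequencing in wounded mouse fibroblasts. The genes were taken by name from the 43472 genes of the deposited table, which holds 17 KLF genes in all. The cells were primary fibroblasts grown from tail tips of C57BL/6 mice, and the monolayer was scratched to model a wound. They received the soluble micrograft (MG), a cell-depleted extract of mouse skin diluted 1 : 10 in medium, together with 1 μM PD0325901, an inhibitor of the kinase MEK upstream of ERK, for 5 h. All 3 libraries are labelled as replicates of this 1 condition, so every level below was measured with both MG and the inhibitor present. Untreated and MG-only cells were not analysed here, and no effect of MG or of the inhibitor was computed.

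KLF proteins bind CACCC and GC-rich elements of DNA through zinc fingers at their C-terminus, and the part before the fingers recruits different cofactors. KLF2, KLF4, KLF5, KLF6 and KLF7 mainly recruit acetyltransferases and activate genes, although KLF4 also represses many. KLF3 binds the corepressor CtBP, and KLF9, KLF10, KLF11 and KLF13 bind the corepressor Sin3a. Several of the genes are immediate early genes that respond within hours to serum, cytokines, wounding or shear stress.

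Library depth was 22540518, 27037783 and 17244505 reads on genes in replicates 1, 2 and 3. Values are normalized counts, which are reads divided by 1 size factor per library. A count of 0 allows up to 3 reads, or 2.61, 2.11 and 3.56 normalized counts (replicates 1 to 3), and this limit covers counting error only. The fibroblast markers (*Col1a1*, *Col1a2*, *Col3a1*, *Pdgfra*, *Pdgfrb*, *Thy1*, *Vim*, *Dcn* and *Lum*) were detected in all libraries, 9 of 9, with a summed level between 347294 and 512836 normalized counts. Replicate 2 stood apart from both other libraries by more than 2-fold in 7.24% of the 12204 detected genes, defined by a minimum of 10 normalized counts in all 3 libraries. For replicates 1 and 3 these shares were 2.08% and 2.02%.

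All 10 KLF members were detected. Their proximal promoters are shown first. Replicate 2 was highest for 4 of the 10 members and lowest for 4, against 40.6% and 37.3% of all detected genes. No link of promoter motifs to these orders was tested. Of the 10 members, 8 had a promoter sequence from RefSeq (GRCm38.p6), which was searched on both strands over the 250 bases before the transcription start. A stretch is printed for *Klf2* and *Klf13*, which were lowest in replicate 2, for *Klf9*, which was highest there, and for *Klf6*, the member with the most reads. Capitals mark a MEF2 site in *Klf2*, CCAAT boxes in the others and, in *Klf9*, an AP-1 site as well.
Klf2 (chr8:72318934-72318963, plus strand): tataccgcggCTAAATTTAGgctgagcccg
Klf6 (chr13:5861249-5861425, plus strand): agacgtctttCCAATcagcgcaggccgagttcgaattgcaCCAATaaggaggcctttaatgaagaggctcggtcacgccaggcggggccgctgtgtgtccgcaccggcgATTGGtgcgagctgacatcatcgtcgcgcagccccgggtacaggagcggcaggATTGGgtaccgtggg
Klf9 (chr19:23141046-23141174, plus strand): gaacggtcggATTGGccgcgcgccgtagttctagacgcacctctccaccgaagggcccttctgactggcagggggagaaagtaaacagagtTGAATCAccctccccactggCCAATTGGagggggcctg
Klf13 (chr7:63939088-63939137, minus strand): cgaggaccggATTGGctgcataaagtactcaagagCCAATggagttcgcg

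The *Klf2* stretch holds a MEF2 site from 118 to 109 bases before the RefSeq start. This motif was present in 2.92% of all 32851 promoters in the table and in 1 of the 8 KLF promoters. MEF2 factors are substrates of the kinase ERK5, and the *Klf2* promoter is known to respond to MEF2. *Klf6* had 4 matches to CCAAT. *Klf9* had 3 matches to CCAAT, 2 of them overlapping, and 1 to the AP-1 motif TGANTCA, which was in 6.75% of all promoters. CCAAT was present in 4 of the 8 KLF promoters and in 33.8% of all promoters. The GC box GGGCGG was in 7 of 8 against 32.7% of all, and *Klf9* was the one without it. CACCC, the KLF element itself, was in 5 of 8 against 52.0%. The E-box CACGTG was in 3 of 8, against 6.02%. TATAAA, the cAMP response element TGACGTCA and the CArG box of SRF matched none of the 8, and 12.4%, 1.55% and 1.47% of all promoters. KLF promoters had 59.2% to 78.4% G and C, against a median of 52.4%, and a letter match does not show that a site is used. The CACCC match of *Klf9* overlaps its AP-1 match.

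Per exon length, the family was dominated by *Klf2* and *Klf6*. Comparison between genes was made on normalized counts per kb of merged exons, since longer transcripts collect more reads. *Klf2*, a factor of endothelial quiescence and T cell trafficking, had a mean level of 1302 ± 513 normalized counts per kb (SD, n = 3). *Klf6*, an activator induced by tissue injury, had 1111 ± 183. Their ranges overlapped, and *Klf2* was the higher of the pair in 2 of 3 libraries. *Klf4*, a factor of epithelial barrier formation, growth arrest and pluripotency, followed with 479.6 ± 193 per kb and lay below *Klf6* in 3 of 3 libraries. *Klf13* followed with 237 ± 82.3 per kb, below *Klf4* in every library with no overlap of their ranges.

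**Figure D1:**
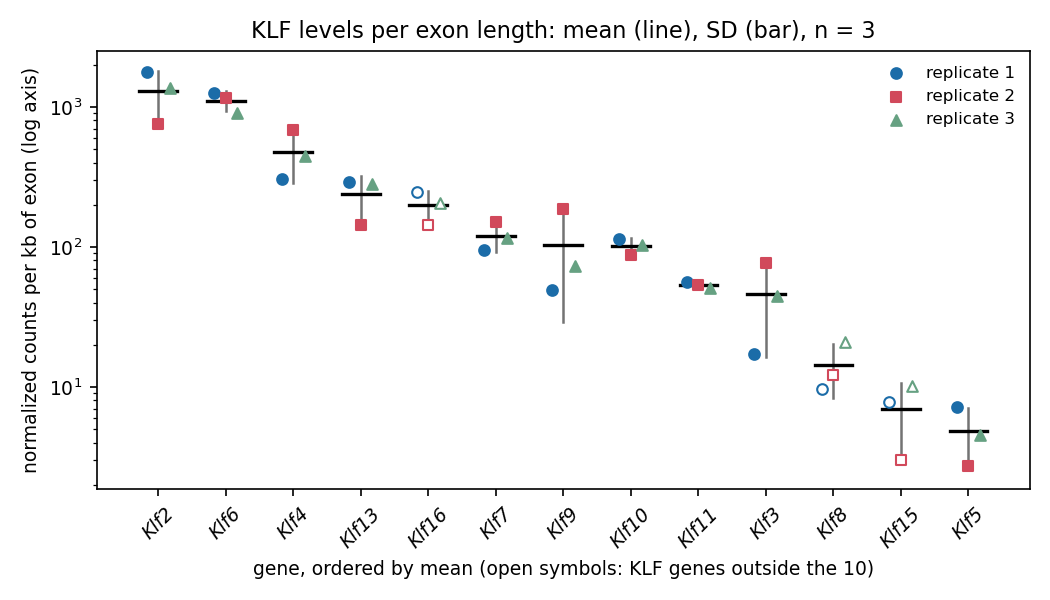
Normalized counts per kb of merged exons (log axis) for the 10 KLF members (filled symbols) and for the other KLF genes with a mean of at least 3 per kb (open symbols), ordered by mean. Lines are means and bars are SD (n = 3), and Klf2 and Klf6 lie highest with means of 1302 and 1111 while Klf5 lies lowest with 4.82.

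The next members were close to each other. *Klf7*, a factor of neuronal outgrowth, had 120.0 ± 27.9 normalized counts per kb, *Klf9* 103 ± 74.3 and *Klf10* 102 ± 13.5 (SD, n = 3). *Klf9* stood above *Klf10* in 1 of 3 libraries although its mean was 1.01-fold higher, so their spreads overlapped. *Klf11*, with 53.4 ± 2.83 per kb, lay below *Klf10* in all 3 libraries. *Klf3* had 46.1 ± 29.8 per kb and overlapped *Klf11*. Divided by the longest transcript in place of merged exons, the mean of *Klf3* was 99.3 per kb and that of *Klf11* 56.8. *Klf5*, a factor of epithelial and smooth muscle proliferation, was by far the lowest with 4.82 ± 2.25 per kb, and *Klf3* was 9.58-fold higher by mean. The *Klf5* level rested on 43, 20 and 20 reads in replicates 1, 2 and 3, with a counting error of 22.4% for 20 reads.

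The summed level of the 10 genes was similar in the libraries while its make-up was not. The sum was 3976, 3299 and 3401 normalized counts per kb in replicates 1, 2 and 3 and averaged 3559 ± 365 (SD, n = 3). The 5 genes of the activating group held 86.7%, 83.4% and 83.8% of it, and the 4 genes of the Sin3a group 12.8%, 14.3% and 14.9%. Within the activating group, *Klf2* made up 44.6% of the whole sum in replicate 1 and 40.4% in replicate 3, but 22.9% in replicate 2. The share of *Klf4* was 7.69%, 20.8% and 13.1% in the same order of replicates 1, 2 and 3. *Klf6* kept 31.9%, 35.0% and 26.7%. As these are bulk libraries, fewer cells of a type and less RNA per cell cannot be told apart for any of the genes.

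**Figure D2:**
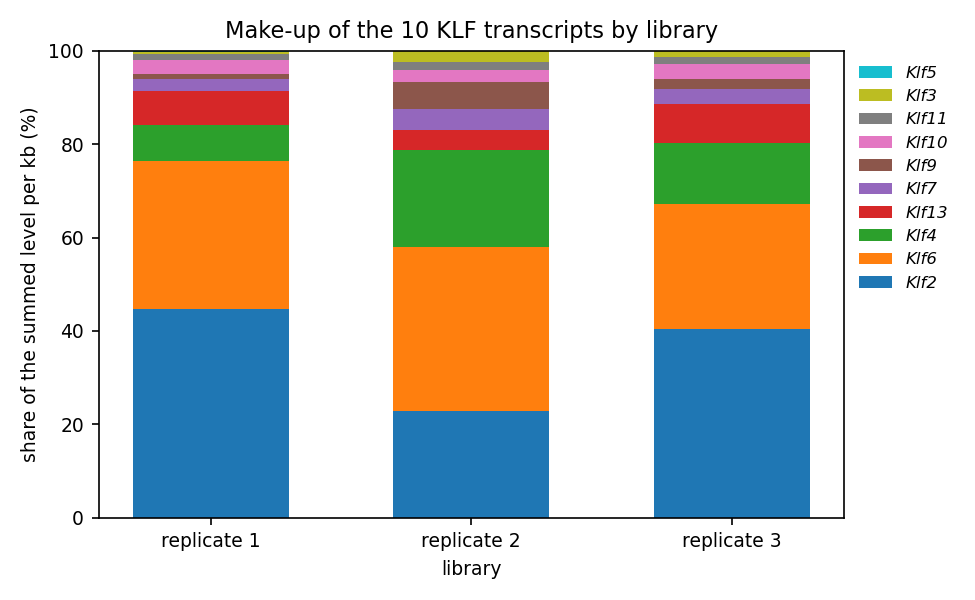
Share of each KLF gene in the summed level per kb of the 10 genes (%), stacked from 0 to 100 for each of the 3 libraries. The Klf2 segment covers 44.6%, 22.9% and 40.4% in replicates 1, 2 and 3, and the Klf4 segment 7.69%, 20.8% and 13.1%.

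Among the activating KLFs, *Klf2* and *Klf4* moved in opposite directions between libraries. *Klf2* (chromosome 8, 72319033 to 72321656, plus strand, GRCm38) had 3276, 1396 and 2540.0 normalized counts (replicates 1 to 3), averaging 2404 ± 948 (SD, n = 3). Replicate 2 was the low library, 2.35-fold under replicate 1. *Klf4* (chromosome 4, 55527143 to 55532466, minus strand) had 932, 2096 and 1359.5 normalized counts, a mean of 1462 ± 589. Here replicate 2 was the high library, 2.25-fold above replicate 1. *Klf2* was therefore 3.52 times *Klf4* in replicate 1, 1.87 times in replicate 3 and 0.666 times in replicate 2 by normalized counts. Per kb the ratio was 5.80, 3.08 and 1.10 in replicates 1, 3 and 2, so *Klf2* remained the higher gene by that measure.

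*Klf6* was the member with the most reads and one of the steadiest. It lies on chromosome 13 from 5861482 to 5870394 and had 5563, 5076 and 3994 normalized counts (replicates 1 to 3), averaging 4878 ± 803 (SD, n = 3). Its level was above that of at least 92.6% of detected genes in every library. The highest library was 1.39-fold over the lowest. *Klf7* (chromosome 1, 64029447 to 64122282) had 771, 1219 and 936 normalized counts (replicates 1 to 3) and followed the order of *Klf4*, with replicate 2 highest and replicate 1 lowest at a 1.58-fold range. *Klf5* (chromosome 14, 99298691 to 99315036) had 37.3, 14.1 and 23.7 normalized counts, in the order of *Klf2*. The exact Poisson intervals (95%) for *Klf5* were 27.0 to 50.3 in replicate 1, 8.61 to 21.8 in replicate 2 and 14.5 to 36.6 in replicate 3, so only those of replicates 1 and 2 did not overlap. Such intervals cover counting error only.

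**Figure D3:**
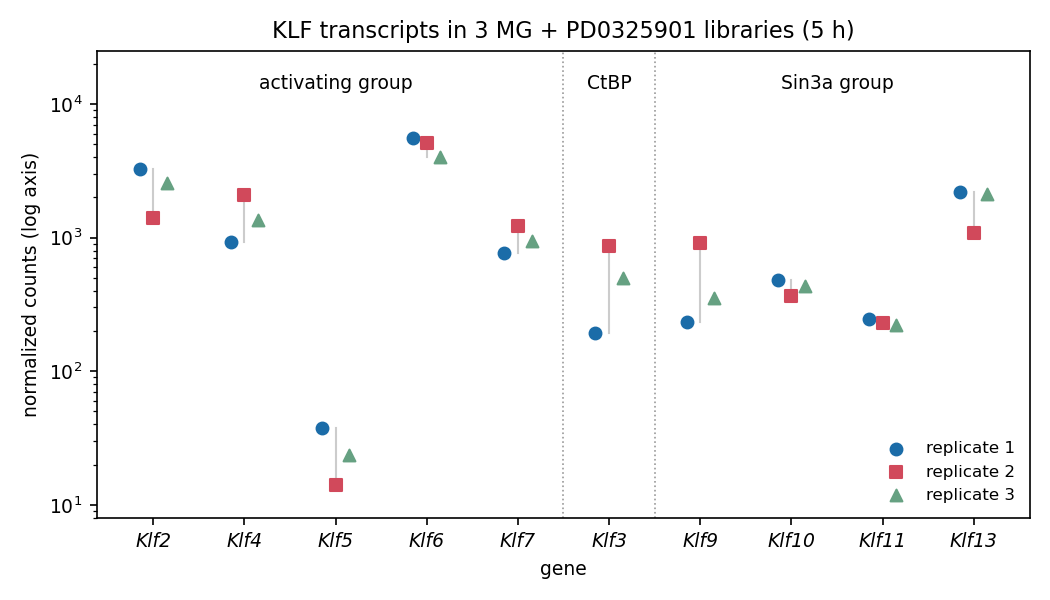
Normalized counts (log axis) of the 10 KLF genes in the 3 libraries, grouped by the cofactor class of the proteins. Symbols mark the replicates, and replicate 2 is the low library for Klf2, Klf5, Klf10 and Klf13 and the high one for Klf3, Klf4, Klf7 and Klf9. Among all detected genes, replicate 2 was lowest for 37.3% and highest for 40.6%.

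*Klf3*, the CtBP-binding repressor that acts in adipose, erythroid and B cells, varied most. On chromosome 5 from 64803388 to 64832901, it had 195, 863 and 498 normalized counts (replicates 1 to 3), averaging 518 ± 335 (SD, n = 3). Replicate 1 was low and replicate 2 high, 4.44-fold apart, with replicate 3 between them. The SD of log2(normalized count + 1) was 1.08, above that of 96.3% of detected genes. An antisense transcript, *Gm20033*, overlaps *Klf3* exons and had 0, 3.52 and 0 normalized counts (replicates 1 to 3). Whether counting used strand is unknown, so reads in the shared exons cannot be told apart. Of the 2 antisense genes that overlap *Klf7* exons, *Gm26649* reached 4.74 normalized counts and *Gm13748* had 0 in every library.

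In the Sin3a group, *Klf9* and *Klf13* differed between libraries in opposite directions, whereas *Klf10* and *Klf11* varied little. *Klf9* (chromosome 19, 23141226 to 23168134), a target of glucocorticoid and thyroid hormone receptors, had 235, 905 and 351 normalized counts (replicates 1 to 3), averaging 497 ± 358 (SD, n = 3). Replicate 2 was 3.84-fold above replicate 1 and 2.58-fold above replicate 3, and *Klf9* was the 1 member for which replicate 2 stood more than 2-fold from both others. Without replicate 2 the mean of *Klf9* was 293 normalized counts. *Klf13* (chromosome 7, 63886351 to 63938915), known as an activator of *Ccl5* in T cells, had 2187, 1074 and 2103 normalized counts. Replicates 1 and 3 were 1.04-fold apart, and replicate 2 was 2.04-fold below replicate 1. *Klf10* (chromosome 15, 38291463 to 38300706), also called TGF-beta inducible early gene, had 478, 366 and 433 normalized counts, a mean of 425 ± 56.3 and a 1.31-fold range. *Klf11* (chromosome 12, 24651274 to 24662789), a close relative that also responds to TGF-beta, was the steadiest member with 245, 230.4 and 220.5 normalized counts, a mean of 232 ± 12.3. Its SD of log2(normalized count + 1) was 0.08, above that of 5.38% of detected genes, and counting error alone was 7.33% in its library with the fewest reads.

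**Figure D4:**
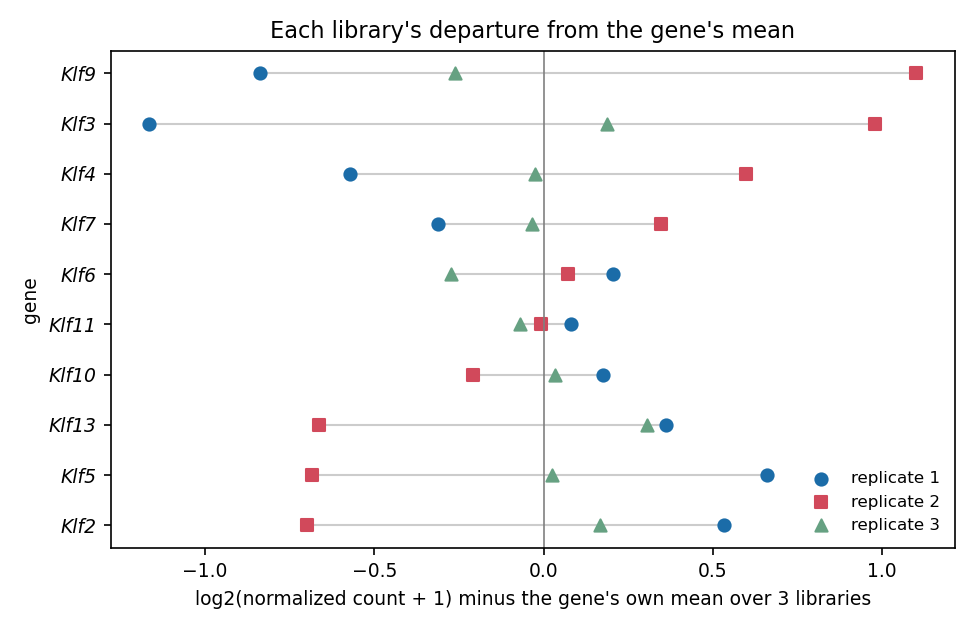
Departure of each library from the gene's own mean of log2(normalized count + 1), for the 10 KLF genes ordered by replicate 2. Replicate 2 lies at 1.10 for Klf9 and 0.98 for Klf3 and at -0.70 for Klf2, -0.69 for Klf5 and -0.66 for Klf13, while the 3 libraries lie within 0.08 of the mean for Klf11.

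Several members had a wide range between replicates, and the counts below are a description of genes chosen with earlier results of these data known. The highest library was more than 2-fold above the lowest for 6 of the 10 members (*Klf2*, *Klf3*, *Klf4*, *Klf5*, *Klf9* and *Klf13*), on the scale of normalized count + 1, against 21.6% of all detected genes. The count rested on replicates 1 and 2, as it was 6 without replicate 3 but 1 without replicate 1 (*Klf9*) and 1 without replicate 2 (*Klf3*). Over the same pairs of libraries, 15.1%, 12.7% and 6.06% of detected genes had such a range. On the log2(normalized count + 1) scale, the members had a median SD of 0.58 and all detected genes one of 0.30. Without replicate 2 these were 0.30 and 0.20, without replicate 1 0.47 and 0.26, and without replicate 3 0.78 and 0.30. Replicate 3 lay between the other libraries for 8 of 10 members and for 43.8% of detected genes. No member was highest in replicate 3, where 27.9% of detected genes were.

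Pairs of libraries were compared gene by gene with two-sided exact binomial tests on the reads, adjusted over all genes with the Benjamini-Hochberg procedure. A call needed an adjusted p under 0.05 and more than 2-fold, and such a call separates 2 libraries beyond counting error, not conditions. The reads carry no molecular identifiers, so they are not independent molecules, and the labels do not say whether the libraries came from separate mice. Between replicates 1 and 2, 6 of 10 members were called, against 20.3% of 14771 genes. By adjusted p alone it was 9 of 10, against 69.1%. The members higher in replicate 2 were *Klf3*, *Klf4* and *Klf9*, and those lower were *Klf2*, *Klf5* and *Klf13*. Their adjusted p ranged from 9.34e-219 for *Klf2* to 0.000394 for *Klf5* by the exact test. *Klf11* did not pass (exact test, adjusted p = 0.525, 1.06-fold).

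Between replicates 1 and 3, 1 of 10 members was called, against 9.27% of 14316 genes. This was *Klf3*, 2.55-fold higher in replicate 3 (exact test, adjusted p = 2.31e-30), and by adjusted p alone it was 6 of 10, against 52% of all. Between replicates 2 and 3 it was again 1 of 10, against 16.4% of 14344 genes. This was *Klf9*, 2.57-fold lower in replicate 3 (exact test, adjusted p = 9.56e-57), and *Klf13* fell just short of the limit at 1.96-fold. By adjusted p alone it was 8 of 10, against 62.6%. Just inside the limit was *Klf13* between replicates 1 and 2, at 2.04-fold. Scaled to equal library totals, the calls between replicates 1 and 2 numbered 5 of 10, against 20.3% of all genes.

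The other 7 KLF genes in the table were mostly low or without reads. *Klf16*, whose protein belongs to the Sin3a group, was the exception with 659.9, 384 and 548 normalized counts (replicates 1 to 3). At 198 ± 51.9 per kb (SD, n = 3) it lay between *Klf13* and *Klf7*, and replicate 2 was its low library, as for *Klf13*. *Klf8*, a CtBP-binding relative of *Klf3*, had 50.4, 63.4 and 109 normalized counts, highest in replicate 3. *Klf15* had 21.7, 8.46 and 28.4 normalized counts. *Klf12*, the third CtBP-binding gene, had 4.93 normalized counts in replicate 2 and 0 in the others, and *Klf1*, the erythroid factor, had 3.47, 0 and 2.37. *Klf14* and *Klf17* had 0 reads in all 3 libraries.

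Genes for the cofactors of KLF proteins were all detected, 10 of 10. None had a range above 2-fold, against 21.6% of all detected genes. *Ctbp1*, the partner of KLF3, had 3300, 3207 and 3334 normalized counts (replicates 1 to 3), and *Ctbp2* had 551, 956 and 660.2. The highest *Ctbp1* library was 1.04-fold above the lowest, against 4.44-fold for *Klf3*. For the Sin3a group, *Sin3a* had 468, 646 and 575 normalized counts and *Sin3b* 2269, 2054 and 2072. By level per kb the cofactor list ran from *Ctbp1* with 733 and *Hdac2* with 487 down to *Kat2b* with 48.0 and *Crebbp* with 44.5.

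The MEK5-ERK5-MEF2 pathway, a separate MAP kinase cascade known to induce *Klf2* and *Klf4*, was expressed, with 7 of its 8 genes detected. *Mapk7*, which encodes ERK5, had 539, 739.8 and 689 normalized counts (replicates 1 to 3), and *Map2k5*, which encodes MEK5, had 397, 393 and 487. *Mef2d*, with 486 per kb, was the highest of the list, and *Mef2a* had 1871, 2203 and 1759 normalized counts. *Map3k3* was low in replicate 1, with 373, 896 and 853, and *Mef2c* was high in replicate 2, with 14.8, 66.9 and 22.5. *Map3k3* came next per kb with 176, and *Map3k2* with 45.6 and *Mef2c* with 2.21 were the lowest detected. *Mef2b* had 0 reads.

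Of the ubiquitin ligase genes known to act on KLF proteins, 9 of 9 were detected. A range above 2-fold was found in 1, against 21.6% of all detected genes. *Fbxo32*, whose product binds KLF4, was high in replicate 2 with 270.1, 546 and 217 normalized counts (replicates 1 to 3). *Wwp1*, a ligase for KLF2 and KLF5, had 599, 903 and 589, and *Smurf1*, another for KLF2, had 1556, 2344 and 1988. *Vhl*, which acts on KLF4, had 1139, 742 and 921. The list ran from *Fbxo22* with 345 and *Vhl* with 312 per kb down to *Siah1b* with 43.9 and *Btrc* with 30.2.

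Of 13 known KLF target genes, 11 were detected and 4 had a range above 2-fold, against 21.6% of all detected genes. *Cdkn1a*, the cell cycle inhibitor p21 and a target of KLF4 and KLF6, was abundant with 21154, 16145 and 20674 normalized counts (replicates 1 to 3), and its order across libraries was not that of *Klf4*. *Lgals3*, a target of KLF3 repression, had 9985, 7734 and 9613 normalized counts, lowest in replicate 2 where *Klf3* was highest. *S1pr1*, a target of KLF2, had 233, 876 and 171 normalized counts, highest in replicate 2 where *Klf2* was lowest. *Ccl5*, the target of KLF13, had 851, 38.8 and 735 normalized counts and was lowest in replicate 2, as was *Klf13*. *Thbd*, another KLF2 target, had 1569, 1339 and 2324, and *Nos3* reached at most 6.95. *Pdgfa*, with 1692, 1439 and 842, and *Eng*, with 1184, 608 and 430.3, were lowest in replicate 3. Per kb, *Cdkn1a* with 5439 and *Lgals3* with 4903 were the highest detected targets and *S1pr1* with 140.0 and *Tgfbr1* with 48.4 the lowest. With 3 libraries no relation between a factor and its target was tested.

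Genes that answer the same signals as the KLFs were read alongside them. The targets, TGF-beta, glucocorticoid and immediate early lists were not tested as sets. In the TGF-beta list, 6 of 6 were detected and 5 were lowest in replicate 2, as *Klf10* was and as 37.3% of all detected genes were, and *Ctgf* had the 1 range above 2-fold with 122412, 58880 and 111854 normalized counts (replicates 1 to 3). *Ltbp2* had 5857 normalized counts per kb, and *Tgif1* with 229 and *Skil* with 98.3 were the lowest of those with a length. In the glucocorticoid list 5 of 6 were detected, with none above 2-fold and 3 lowest in replicate 2. Of all detected genes, 21.6% were above 2-fold and 37.3% lowest in replicate 2. *Fkbp5*, with 214, 308 and 181, was highest in replicate 2 as *Klf9* was, whereas *Tsc22d3* was lowest there with 2381, 1272 and 2071. Per kb, *Dusp1* with 1911 and *Sgk1* with 1241 were highest and *Per1* with 85.9 and *Fkbp5* with 24.7 lowest. All 8 immediate early genes were detected and 5 were lowest in replicate 2, against the same 37.3%. Of these, *Ier3* had 22607, 6647 and 21423 normalized counts and *Atf3* 225, 64.8 and 149. Per kb, *Ier3* with 14936 and *Btg2* with 891 were highest and *Fos* with 18.5 and *Egr1* with 7.76 lowest. *Egr1* was low with 57.3, 16.2 and 30.8 normalized counts, while *Myc*, also among the 5, had 1309, 1257 and 1286, a 1.04-fold range. The median log2 difference of replicate 2 from the mean of the others was 0.05 for the 10 KLFs, -0.25 for the TGF-beta list, -0.40 for the glucocorticoid list and -0.40 for the immediate early list, against 0.03 for all detected genes.

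**Figure D5:**
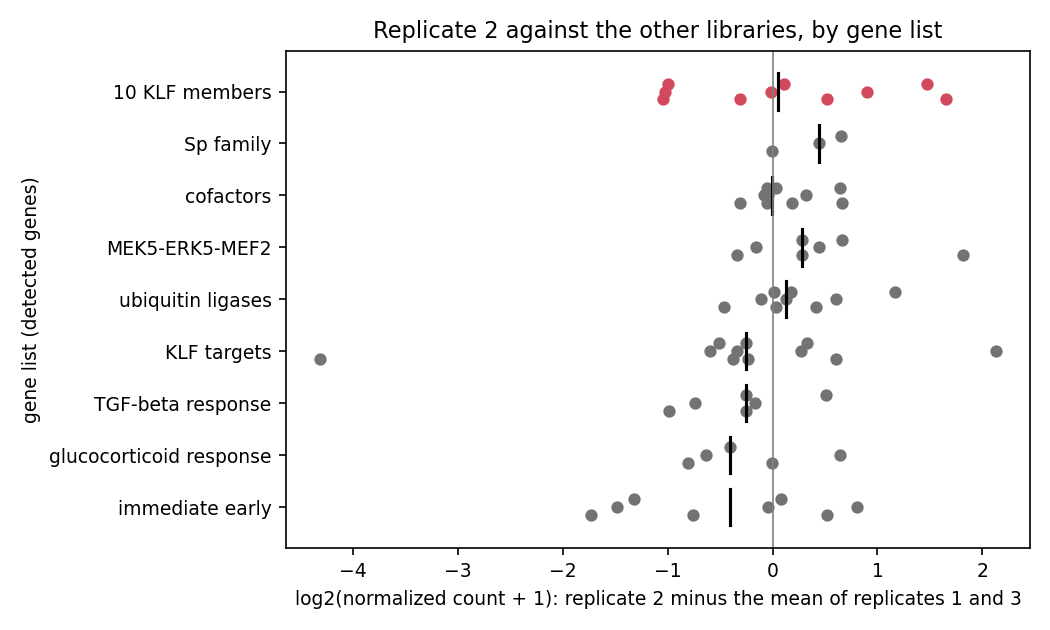
Log2(normalized count + 1) in replicate 2 minus the mean of replicates 1 and 3, for the detected genes of each list (points) with the list's median (line). The 10 KLF genes spread on both sides of 0, from -1.05 for Klf2 to 1.65 for Klf9, with a median of 0.05.

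Markers of cell types that use KLFs heavily were read in the same libraries. For keratinocytes, in which KLF4 and KLF5 are abundant, 1 of 6 markers was detected (*Krt10*), *Krt1* and *Krt15* had 0 reads, and *Krt5* and *Krt14* reached 0.868 and 2.37 normalized counts. The summed level of this list was 84.2, 48.6 and 39.1 in replicates 1, 2 and 3. For endothelial cells, which depend on KLF2, 1 of 6 markers was detected (*Egfl7*), *Emcn* had 0 reads, and *Pecam1*, *Cdh5* and *Kdr* reached 9.55, 1.19 and 4.34. That list summed to 90.3, 244 and 55.7, of which *Tek* gave 185 in replicate 2, the library in which *Klf2* was lowest. Leukocyte markers, with 1 of 6 detected (*Lyz2*), summed to 142, 76.8 and 669.7, highest in replicate 3. Most of each sum was *Lyz2* alone, with 123, 62.7 and 601 normalized counts. *Laptm5*, *Tyrobp* and *Cd52* were low but also highest in replicate 3, at 36.7, 15.4 and 9.48. *Ptprc* and *Cd74* were highest in replicate 1, at 1.74 and 14.8. Smooth muscle markers were detected in full, 4 of 4, with sums of 34032, 28387 and 27344. Of these sums *Cnn1* gave 24823, 17498 and 18068, while *Myh11* was low in replicate 3, with 1383, 1587 and 584. Of the 9 fibroblast markers, 3 stood more than 2-fold from both other libraries in replicate 2. These were *Thy1* at 2031, 15760.0 and 1652 normalized counts, *Lum* at 5073, 289 and 1164 and *Dcn* at 3661, 1723 and 3659. *Lum* also differed 4.36-fold between replicates 1 and 3. The remaining fibroblast markers had ranges of at most 1.80-fold, in *Col1a2*. The part of these differences in the KLF levels was not tested.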

How the data were processed

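RNA was sequenced from 3 libraries of wounded primary mouse fibroblasts given MG and PD0325901 for 5 h, labelled replicates 1 to 3 of 1 condition. Single-end reads were mapped by the authors to mm10 (TopHat2 2.0.13), unique alignments were counted per gene (HTSeq 0.5.3p3), and DESeq is named in the submitters' processing notes. The gene annotation and strand setting of the counting are not given in the sources used here. The signal deposited by the authors is normalized counts, with 1 size factor per library, and 3 more per-sample columns were left out, since the labels assign them to no sample. Divided by what 1 read is worth, 100% of values in each library came out whole (tolerance 0.01), so reads were recovered by division and summed to 22540518, 27037783 and 17244505. Of these reads, 0.231% were on 27 gene names turned into dates, which name no gene. With 1 condition, no count model between groups could be fitted.

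Mean and SD refer to normalized counts, and a pseudocount of 1 was added before log2. Detected means at least 10 normalized counts in every library. Each pair of libraries was tested with the two-sided exact binomial test for every gene reaching 10 reads over the pair, and p was adjusted over all such genes (Benjamini-Hochberg, 0.05). The steps were tested on simulated data drawn with counting error only, so that test does not cover variation between replicates. Merged exon lengths and positions came from GENCODE M21 (GRCm38, the same assembly as mm10) and promoters from RefSeq (GRCm38.p6), which held none for *Klf5* and *Klf10* in the table used. The 2 sources place some starts differently. The searched bases of *Klf2*, *Klf3*, *Klf6*, *Klf7* and *Klf11* run into or lie within the gene as GENCODE places it. Software was Python 3.11.15 (scipy 1.17.1, numpy 2.4.6, pandas 2.3.3), and TMM factors came from edgeR 4.0.16 under R 4.3.3.

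Named genes were the 10 members, all other KLF genes and, of 9 related lists (5 marker lists were read as well), the 2 highest and 2 lowest per kb and genes with 1 library more than 2-fold from both others. 1 gene that this rule names is not reported here. Others were named for the role stated beside them, after their values were seen. The members and lists were chosen with earlier results of these data known. Alternatives tried were other scalings, pseudocounts, fold limits, minimums and lengths and each replicate left out.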

Additional observations from a re-analysis of the deposited data

How the results depend on the processing

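No paired analysis was possible because all 3 libraries belong to the same condition. The 10 mean levels moved by at most 1.21% with libraries scaled to equal totals and 0.142% with TMM scaling. Both sets of size factors were set to the geometric mean of the authors' factors, so a mean over 3 libraries could move little by construction. With each replicate left out, between 1 and 6 members had a range above 2-fold, a count that cannot rise with fewer libraries. The count stayed at 6 without replicate 3 and was 1 without replicate 1 or without replicate 2. The median SD was then between 0.30 and 0.78 (0.20 to 0.30 for all detected genes). With all 3 libraries, the count of members above 2-fold was 5 when scaled to equal totals, against 22.1% of detected genes. With a pseudocount of 10 it was also 5, against 18.3%. Without replicate 2 the *Klf9* level was 293 normalized counts, against 497 with all libraries. An adjusted p under 0.05 alone gave 6 members between replicates 1 and 3 and 8 between replicates 2 and 3, and a limit of 1.5-fold gave 5 between replicates 2 and 3, by construction (52%, 62.6% and 30.0% of all genes). These were the 3 counts of calls that moved by more than 1.5 times. Divided by the longest transcript, 5 of the 10 ranks were equal to those per merged exon, with *Klf10* moving to 5, and without division by length 2 were equal, with *Klf6* first. Without replicates 1, 2 and 3 in turn, 8, 7 and 10 ranks were equal. Depth limited *Klf5*, with 20 reads in replicates 2 and 3.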

Other observations

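The Sp factors, the nearest relatives of the KLFs with the same kind of zinc fingers, were read in the same libraries. Of 9 Sp genes, 3 were detected and none of these had a range above 2-fold, against 21.6% of all detected genes. *Sp3*, at 139.5 ± 40.0 per kb (SD, n = 3), and *Sp1*, with 96.2 ± 18.0, lay near *Klf7* and *Klf9* by level per kb, and both were highest in replicate 2. *Sp2* had 213, 209 and 209 normalized counts (replicates 1 to 3). *Sp5*, *Sp7* and *Sp8* had 0 reads.

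Short-lived mRNAs often carry the pentamer ATTTA in the 3' UTR. Of the 10 KLF genes, 10 had at least 1 ATTTA in the 3' UTR of their longest coding transcript, against 70.8% of 11136 detected protein-coding genes. Their 3' UTRs were longer, with a median of 2718.5 bases against 1185, and per kb the median was 2.06 matches against 1.34. *Klf7* had the most, 18 matches in 6266 bases, and *Klf2* and *Klf4* had 1 each.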
